A study of Homo sapiens with 42 samples.

Results

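The long variable arm tRNAs are the leucine (Leu), serine (Ser) and selenocysteine (SeC) tRNAs of the nuclear genome. They were taken as every count-table row of at most 500 bases that is annotated as a tRNA outside the mitochondrial genome and named Leu, Ser or SeC. This gave 64 rows of the 175946 in the table, and of the 499 nuclear tRNA rows named by anticodon. Of the 64 rows, 34 were Leu, 27 Ser and 3 SeC, and they fell into 10 anticodons, 5 for Leu, 4 for Ser and 1 for SeC. Rows were summed by anticodon because copies of one tRNA share reads.

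Most tRNAs have a variable arm of a few bases between the anticodon stem and the T stem, whereas Leu, Ser and SeC tRNAs carry there an additional stem and loop. Seryl-tRNA synthetase recognises its substrates by this long arm, and it also charges the SeC tRNA, whose serine is then turned into selenocysteine so that UGA stop codons can be read as selenocysteine in selenoproteins. RNA polymerase III makes all of them. Leu and Ser genes are driven by the A and B boxes inside the gene, which bind TFIIIC, while the SeC gene has its promoter upstream. Transcription ends in a run of T, RNase P removes the 5′ leader and ELAC2 the 3′ trailer, and the introns of Leu-CAA tRNAs are spliced out. The antiviral nuclease SLFN11 cuts tRNAs of this class in human cells.

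Small RNA was sequenced from THP-1 cells, a human monocytic leukaemia line, in groups labelled A4, A7, E4 and G8, and from libraries labelled mock, which the labels give as HEK293T, a human embryonic kidney line, with 200 nM of a control antisense oligonucleotide. The series set out to knock out POLR3G and POLR3GL, alternative subunits of RNA polymerase III, in THP-1 cells, but the group names do not tell which subunit each group lacks, nor whether a group is 1 clone. Each group had 3 libraries with and 3 without treatment by Antarctic phosphatase and polynucleotide kinase (plus and minus PNK), an end repair that lets adapters join RNAs whose ends could not otherwise be ligated. Another 12 labelled samples are not analysed here, and neither POLR3G nor POLR3GL has a row, so the loss of either is not measured. The labels do not say whether the 3 libraries of a group came from separate cultures, so each p-value reflects the spread among these libraries alone, which may be technical.

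The kept rows, chosen so that they do not overlap, summed to 5545464 to 7871875 counts per library with PNK and 9652574 to 13270626 without. Libraries 1 and 2 of G8 stood apart from the others without PNK. Their miRNA share was 2.00% and 2.05% of kept counts, against 12.9% to 25.9% in the other 13 libraries. Results that involve G8 are therefore given with and without both, in both arms. Without them G8 is library 3 alone, which is assumed to vary like the libraries of the other groups, and the spread behind each such p-value comes from those groups. Without PNK, 6 haematopoietic marker miRNAs (MIR142, MIR223, MIR155, MIR150, MIR146A and MIR342), of which 5 or 6 were detected in each library, summed to 0.546% to 1.34% of counts in A4, A7 and E4 and 0.0629% to 0.699% in G8, against 0.543% to 0.814% in the libraries labelled mock. Epithelial marker miRNAs summed to 0.000321% to 0.00884% in the THP-1 groups without PNK and to 0.00292% to 0.00448% in mock. These values without PNK go against the HEK293T label, so the group is called by its label, mock. With PNK the haematopoietic sum was 0.0150% to 0.0547% in A4, A7 and E4 and 0.00366% to 0.0167% in G8. In mock it was 0.00988% to 0.0114%, below every A4, A7 and E4 library. In bulk libraries, fewer cells of a type and less RNA per cell cannot be told apart.

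Of the 64 rows, 57 matched a RefSeq tRNA gene, 28 lie on chromosome 6, 45 lie outside annotated genes and 3 touch an annotated exon. The Leu-AAG gene tRNA-Leu-AAG-2-4 at chr6:28943622-28943703 on the minus strand (GRCh38) is shown because its whole sequence lies in the RefSeq promoter window of LINC01556 (GRCh38.p14) and so shows the layout of a Leu gene with internal boxes. Capitals mark the A box at bases 8 to 18 and the B box at bases 61 to 71, and the long variable arm lies between them.
tRNA-Leu-AAG-2-4: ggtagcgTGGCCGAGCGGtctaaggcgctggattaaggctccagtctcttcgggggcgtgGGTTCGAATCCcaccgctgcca
The 20 bases that follow it are shown with their run of T, the kind of signal at which RNA polymerase III stops, in capitals.
Bases after tRNA-Leu-AAG-2-4: gtgtgaggtaTTTTTTTTTT
The boxes are 42 bases apart. The consensus A box and B box were searched on both strands and do not overlap. Of 35116 promoter windows of the same table, 2.278% held the A box, 0.185% the B box and 1 window (0.00285%) both on one strand. That 1 window is the one of LINC01556 shown here, so it is not a separate background rate.

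Another sequence is shown because its row abuts a member. The Ser-GCT copy tRNA-Ser-GCT-3-5 at chr17:8186866-8186947 on the plus strand (GRCh38) is followed on the next base by the row of MIR4521. The mature miRNA is given from RefSeq (GRCh38.p14) with its seed, bases 2 to 8, in capitals, and the hairpin with the 3 bases that lie inside the tRNA row in capitals.
hsa-miR-4521: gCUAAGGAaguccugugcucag
MIR4521 hairpin: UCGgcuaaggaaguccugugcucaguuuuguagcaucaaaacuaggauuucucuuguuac

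The make-up of the long variable arm counts differed between the arms in all 5 groups. Leu tRNAs held 59.9% to 75.8% of them with PNK, against 9.99% to 27.3% without. Ser tRNAs held 22.6% to 33.7% with PNK, against 68.2% to 89.4% without. SeC held 1.17% to 6.35% with PNK, against 0.413% to 4.52% without. The ranges for Leu and for Ser did not overlap between the arms. These shares include 1 Ser-TGA row on chromosome 10. It held 4.01% to 11.7% of the long variable arm counts with PNK, against 48.5% to 87.0% without. The Leu and Ser shares without that row are not given here. The shift is therefore not read as a difference between Leu and Ser tRNAs as classes.

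**Figure D1:**
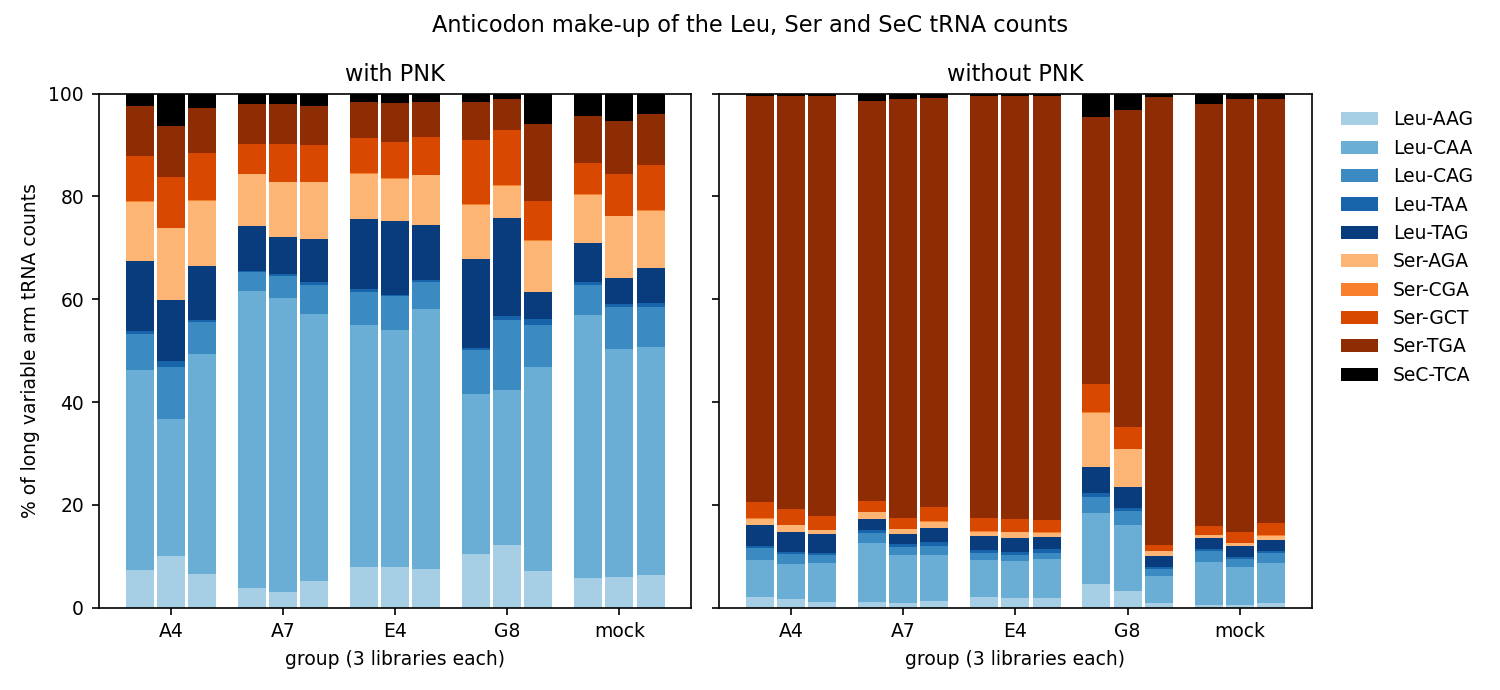
Share of each anticodon (colours) in the long variable arm tRNA counts of each library (bars, 3 per group), with PNK on the left and without on the right. Ser-TGA fills 51.9% to 87.3% of the bars without PNK and 5.95% to 14.9% with it, while Leu-CAA holds 26.7% to 57.9% with PNK.

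A single Ser row held most of the long variable arm counts without PNK. tRNA-Ser-TGA-1-1, at chr10:67764503-67764584 on the plus strand in no annotated gene, reads UCA serine codons. It had 14989 counts over the 15 libraries with PNK, against 481928 without. Its counts with PNK were 1266, 736 and 751 in A4, 1517, 1041 and 1039 in A7, 1168, 1385 and 1100 in E4, 387, 314 and 1544 in G8, and 883, 992 and 866 in mock. Those without PNK were 21704, 20220 and 26661 in A4, 45872, 52646 and 43113 in A7, 33442, 32866 and 34702 in E4, 4962, 4932 and 37424 in G8, and 44856, 48503 and 30025 in mock. Every library without PNK was above every library with it, and G8 libraries 1 and 2 were the lowest of each arm. Over all libraries the row held 5.28% of all long variable arm counts with PNK, against 80.6% without. Per library it held 4.01% to 11.7% with PNK, against 48.5% to 87.0% without, and 77.4% to 87.0% without PNK when G8 libraries 1 and 2 are left aside. The other 3 Ser-TGA copies, all on chromosome 6, had 2857 to 3086 counts with PNK, against 517 to 862 without.

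Long variable arm tRNAs made up 1.49% to 3.75% of nuclear tRNA counts with PNK, against 7.09% to 20.6% without. With the chromosome 10 row left out the shares were 1.43% to 3.59% with PNK and 2.70% to 4.35% without, and the ranges of the arms overlapped. In G8 libraries 1 and 2 the shares with that row in were 1.49% and 1.52% with PNK and 7.09% and 7.94% without, the lowest values of each arm.

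**Figure D2:**
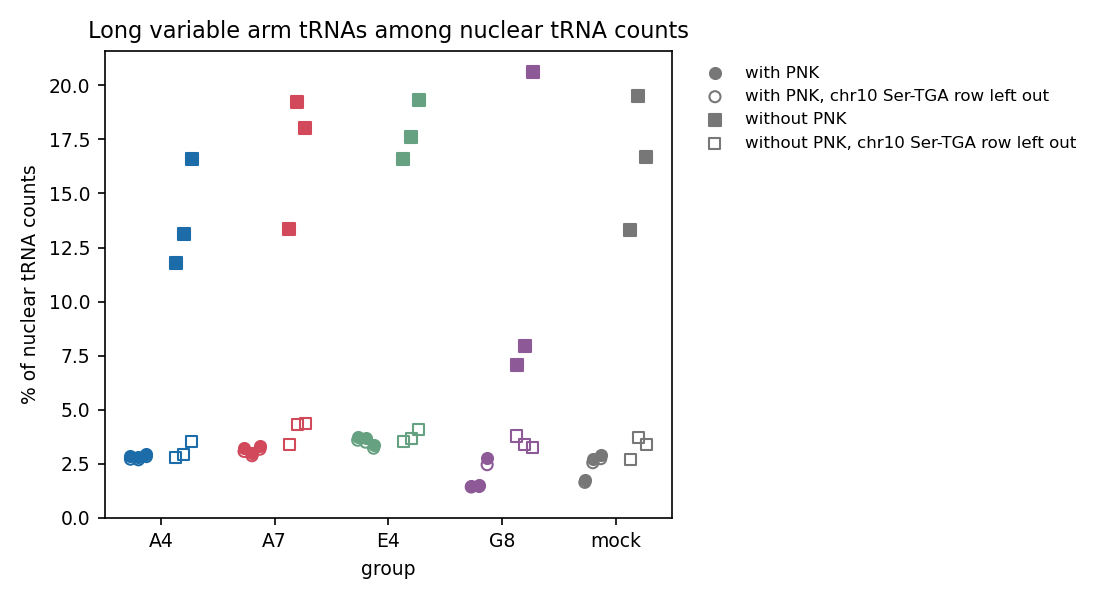
Long variable arm tRNAs as a percentage of nuclear tRNA counts in each library, by group. Circles are libraries with PNK and squares libraries without; filled symbols count all 64 rows, and open symbols leave out the Ser-TGA row on chromosome 10, which brings both arms to 4.35% or below.

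The opposite strand of this gene holds the long non-coding RNA row lnc-DNAJC12-1, which starts at base 43 of the tRNA and runs past its 3′ end. The 2 rows differed by -1 to 5 counts per library with PNK and by -3 to 1 without, long non-coding row less tRNA row, while the tRNA row held 314 to 1544 counts with PNK and 4932 to 52646 without. Counts ignore strand: all 32 opposite-strand rows that contain a member had at least its counts. The counts were thus nearly equal although the long non-coding row leaves out the tRNA's bases before base 43. Whether both rows counted the same reads, and whether these ended in the tRNA or ran on into its trailer, cannot be told from counts per row.

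Some other rows also had more counts without PNK. Of 55 member rows with at least 100 counts in all, 14 had more counts without PNK and 41 had more with it. The median ratio of counts with PNK to counts without was 2.62. These counts and ratios are not scaled for library size. Every library without PNK held more kept counts than any library with it, so the split of 14 against 41 depends on library size. On the TMM scale, edgeR called 29 to 44 of the 48 to 54 member rows tested per group lower with PNK and 0 to 3 higher. In these fits 68.8% to 84.3% of all features were called in either direction, and the shares by direction are not given here. With rows summed by anticodon, 15.5% of all tests of features were called lower and 59.5% higher. The unscaled ratio was lowest for the Ser-TGA row, at 0.0311, and next lowest for tRNA-Ser-GCT-6-1 at chr6:26305493-26305570, at 0.122. It was followed by tRNA-Leu-TAG-2-1 at chr16:22195711-22195792, with 0.201, and by the Ser-GCT copy beside MIR4521, with 0.295.

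This last copy can be set beside 2 others of identical sequence, on chromosomes 6 and 15. It had 2372 counts with PNK, against 8046 without, while the others had 3086 and 3198 with PNK, against 372 and 644 without. The MIR4521 row that abuts it had 726 counts with PNK, against 7971 without. Without PNK the tRNA row and the MIR4521 row differed by -5 to 31 counts per library, tRNA row less MIR4521 row, with 53 to 946 counts in the tRNA row. With PNK the difference was 45 to 172 counts per library. Without PNK this tRNA row thus held nearly the counts of the adjoining miRNA row. How reads that abut a row were counted is not stated in what was used here, so reads that hold a base of the tRNA and reads that start on the next base cannot be told apart.

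Identical copies differed in other families too. The 7 copies of tRNA-Leu-CAG-1-1 had 173 to 5431 counts with PNK and 198 to 5639 without, the highest in both arms at chr1:161530342-161530424. The 6 copies of tRNA-Ser-AGA-2-6 lay closer together, at 2864 to 3669 with PNK and 589 to 1182 without. For Leu-TAG the leading row changed with the arm. tRNA-Leu-TAG-1-1 at chr17:8120314-8120395 held 88.2% of Leu-TAG counts with PNK and 28.3% without, and tRNA-Leu-TAG-2-1 held 7.07% with PNK and 66.4% without.

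Leu-CAA was led by 1 row in both arms. tRNA-Leu-CAA-4-1 at chr1:248873855-248873960 on the plus strand, in no annotated gene, held 92.9% of Leu-CAA counts with PNK and 95.2% without, and 43.3% of all long variable arm counts with PNK. It is 106 bases long and 1 of 5 Leu-CAA rows over 100 bases, the length of a tRNA gene with its intron. Reads per row do not say whether the intron was present. SeC counts came mostly from tRNA-SeC-TCA-1-1 at chr19:45478602-45478687, in an intron of ERCC1, with 85.7% of SeC counts with PNK and 95.8% without. A second SeC row, on chromosome 22 within PARVB, held 14.2% with PNK and 4.17% without, and the row on chromosome 17 had 1 count in each arm.

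**Figure D3:**
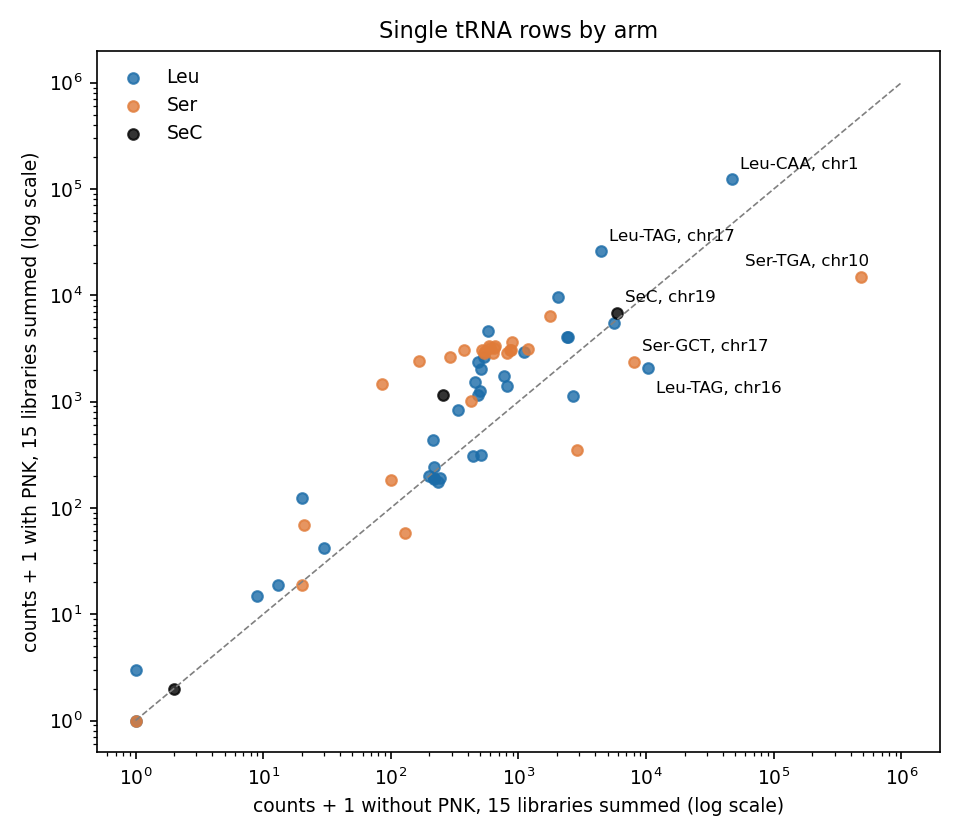
Counts of the 64 single rows summed over 15 libraries, with PNK (vertical) against without (horizontal), both as counts + 1 on log scales; the dashed line marks equal counts. The Ser-TGA row on chromosome 10 lies far below the line, at 14989 against 481928 counts, and the Leu-CAA row on chromosome 1 above it, at 122880 against 47081.

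Differences between the arms depended on how libraries were scaled. On the TMM scale, which equalises a trimmed mean of the log ratios of all features, edgeR called 0 of 50 anticodon and group tests higher with PNK (59.5% of all tests of features were) and 47 of 50 lower (15.5% of all). The count of higher calls was also 0 at an unadjusted p under 0.05, where 21531 of all 34684 tests of features were higher. It was 0 in DESeq2 too, which called 48 lower, and the share of all features that DESeq2 called is not given here. The median log2 difference of the 10 anticodons, plus less minus PNK, was -1.96 for A4, -2.91 for A7, -1.80 for E4, -3.20 for G8 and -3.59 for mock. That of the 38 other nuclear tRNA anticodons tested was lower in each group, at -3.01, -3.70, -3.09, -4.14 and -4.19, and that of all features was 2.35, 2.48, 2.76, 2.33 and 2.20. Scaled by library totals, which moved the median of all features by 3.49 to 4.34, 37 of the 50 were higher (88.8% of all tests of features were) and 6 lower (8.92% of all).

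Ser-TGA fell by the most on the TMM scale, by 6.90 for A4, 7.70 for A7, 7.21 for E4, 7.83 for G8 and 8.59 for mock on the log2 scale, with adjusted p between 5.16e-49 and 1.75e-07. It was also lower by library totals, at -3.06 to -4.06, and by nuclear tRNA totals, at -5.36 to -5.83. Scaling by miRNA factors turned the direction round, at 1.45 for A4, 0.65 for A7, 1.21 for E4, 1.25 for G8 and 1.13 for mock, and moved the median of all features by 7.92 to 9.16. Without the chromosome 10 row, Ser-TGA differed by -0.05 in A4 (adjusted p = 0.904), -0.98 in A7 (adjusted p = 0.00376), -0.44 in E4 (adjusted p = 0.0674), -3.66 in G8 (adjusted p = 0.000138) and -0.88 in mock (adjusted p = 0.0230) on the TMM scale. The PNK fit of G8, made on its own 6 libraries, was not run without G8 libraries 1 and 2.

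Among nuclear tRNAs, that is, scaled by nuclear tRNA totals, 5 of the 50 tests were called higher (84% of all tests of features were) and 22 lower (12% of all). Leu-TAA was lower with PNK in 5 of 5 groups and Ser-CGA in 4. SeC-TCA was called higher in 1 group and lower in 3. Leu-AAG and Leu-CAA were called in no group. Ser-AGA was called higher in 4 groups, with log2 differences of 1.32 for A4, 0.85 for A7, 0.92 for E4 and 1.36 for mock, and lower in G8, at -1.55. On the TMM scale the same tRNA was lower in A7, at -1.12, in G8, at -3.61, and in mock, at -1.35, and differed by -0.23 in A4 (adjusted p = 0.525) and -0.45 in E4 (adjusted p = 0.0586), while by library totals and by miRNA factors it was higher in all 5 groups. The mitochondrial Leu and Ser tRNAs MT-TL1, MT-TL2, MT-TS1 and MT-TS2, made by another polymerase, gave 4 higher and 2 lower calls in 20 tests on the TMM scale, with log2 differences of -1.83 to 1.57.

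**Figure D4:**
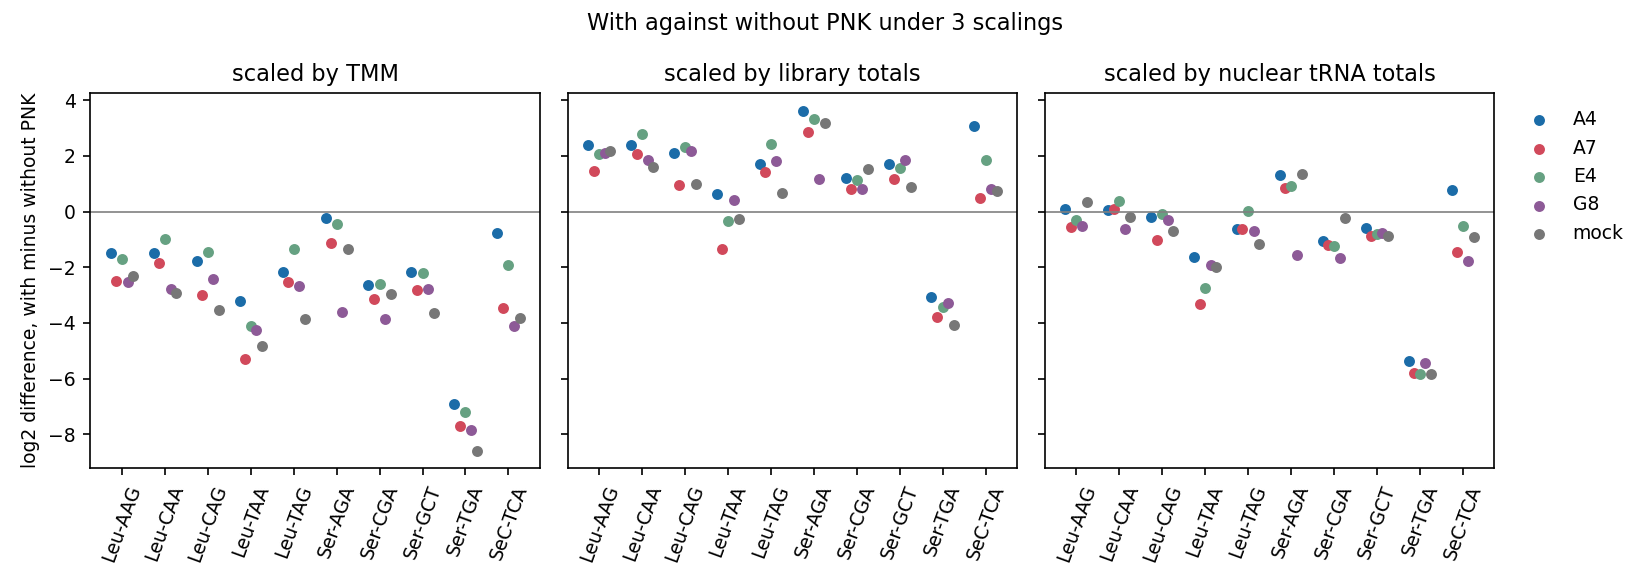
Log2 difference between libraries with and without PNK for the 10 anticodons (horizontal) in 5 groups (colours), with libraries scaled by TMM, by library totals and by nuclear tRNA totals. Under TMM 47 of 50 points are called lower (15.5% of all tests of features) and under library totals 37 are called higher (88.8% of all); Ser-TGA lies below 0 in these 3 panels and above 0 under miRNA factors, which are not drawn.

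Levels are given as CPM, each count scaled to a common library size, on the TMM scale of the 15 libraries of one arm. They follow counts, not copies per length, and so are compared between groups and not between tRNAs. Across A4, A7, E4 and G8, edgeR called 3 of 10 anticodons with PNK (22% of all features were called) and 4 of 10 without (31.3% of all). The calls with PNK were Leu-AAG, Leu-CAA and Ser-AGA, and those without were Leu-CAA, Leu-TAA, SeC-TCA and Ser-AGA. Over the 6 pairs of groups, 13 of 60 tests were called with PNK (9.59% of all) and 11 of 60 without (13.6% of all). The 38 other nuclear tRNA anticodons gave 20 calls across the groups with PNK and 12 without.

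Leu-CAA, which reads UUG codons, had the lowest adjusted p of the 10 anticodons across the THP-1 groups with PNK, at 0.000411. Its levels were 1093, 791 and 1435 CPM for A4, 2957, 2139 and 1774 for A7, 2037, 1807 and 2182 for E4 and 582, 443 and 672 for G8, against 1205, 796 and 817 for mock. Every A7 and E4 library lay above every A4, G8 and mock library, and every G8 library below all others. Leu-CAA was higher in A7 than in G8 by 2.03 on the log2 scale (adjusted p = 0.000378) and in E4 than in G8 by 1.84 (adjusted p = 0.000884). With G8 library 3 alone, its spread taken from the other groups, the differences were 1.78 (adjusted p = 0.0278) and 1.59 (adjusted p = 0.0439). Both kept their calls without any 1 library and by nuclear tRNA totals, at 1.39 and 1.35.

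A4 lay between these groups. Against A7, Leu-CAA in A4 showed a log2 difference of -1.05 (adjusted p = 0.0149), against E4 one of -0.86 (adjusted p = 0.0483) and against G8 one of 0.98 (adjusted p = 0.0216). The first was lost when any 1 of 3 libraries was left out (adjusted p up to 0.0739, without A7 library 1), the second with any 1 of 8 (up to 0.189, without A4 library 2) and the third with any 1 of 4 (up to 0.0971, without G8 library 2). All 3 were also lost by nuclear tRNA totals, at adjusted p = 0.171, 0.263 and 0.257.

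Without PNK, Leu-CAA averaged 178 ± 43.5 CPM for A4, 462 ± 108 for A7, 267 ± 29.1 for E4 and 201 ± 28.6 for G8, against 354 ± 95.6 for mock (mean ± SD, n = 3 each). The log2 difference was -1.37 for A4 less A7 (adjusted p = 0.0403) and 1.20 for A7 less G8 (adjusted p = 0.0168), and 0.96 with G8 library 3 alone (adjusted p = 0.109). The first was lost with any 1 of 8 libraries left out (adjusted p up to 0.177, without A7 library 2) and the second with any 1 of 4 (up to 0.112, without G8 library 1); by nuclear tRNA totals neither was called (adjusted p = 0.112 and 0.114).

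Ser-AGA, which reads UCU codons and through its modified first base others of that box, was lowest in G8 with PNK and highest in 2 of 3 G8 libraries without. With PNK its levels were 327, 411 and 425 CPM for A4, 513, 397 and 378 for A7, 376, 321 and 422 for E4 and 195, 90.2 and 169 for G8, against 221, 216 and 207 for mock. Every G8 library was below all others. The log2 difference was 1.37 for A4 less G8 (adjusted p = 0.00239), 1.52 for A7 less G8 (adjusted p = 0.00245) and 1.31 for E4 less G8 (adjusted p = 0.00548). With G8 library 3 alone, its spread again taken from the other groups, it was 1.19 (adjusted p = 0.0286), 1.35 (adjusted p = 0.0296) and 1.15 (adjusted p = 0.0532). By nuclear tRNA totals all 3 missed the threshold, at adjusted p = 0.0503, 0.0715 and 0.111.

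Without PNK the levels of Ser-AGA were 24.0, 27.2 and 26.8 CPM for A4, 61.0, 48.1 and 45.7 for A7, 30.8, 37.6 and 34.9 for E4 and 140, 107 and 42.6 for G8, against 28.6, 26.4 and 27.9 for mock. G8 libraries 1 and 2 were above all others, and G8 library 3 lay below the A7 libraries. Ser-AGA was lower in A4 than in G8 by -1.88 on the log2 scale (adjusted p = 0.00872) and in E4 than in G8 by -1.49 (adjusted p = 0.0240). Against G8 library 3 alone the differences were -0.70 (adjusted p = 0.0597) and -0.38 (adjusted p = 0.390), and both calls were lost. The second was also lost with any 1 of 4 libraries left out (adjusted p up to 0.0887, without E4 library 1).

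The 3 Ser-TGA copies on chromosome 6 had 2857 to 3086 counts with PNK and 517 to 862 without. The 6 copies of tRNA-Ser-AGA-2-6 had similar counts, at 2864 to 3669 and 589 to 1182. Whether the 2 anticodons share reads was not tested, so their results are not taken as independent. Taken without the chromosome 10 row, the 3 Ser-TGA copies showed differences from G8 in the same directions as Ser-AGA. Their sum differed by -2.07 for A4 less G8 (adjusted p = 0.00848) and -1.61 for E4 less G8 (adjusted p = 0.0251) without PNK, and by 1.44, 1.56 and 1.27 for A4, A7 and E4 less G8 with PNK (adjusted p = 0.00332, 0.00401 and 0.0114). Single rows were also fitted with G8 library 3 alone. For A4 less G8, tRNA-Ser-TGA-3-1 and tRNA-Ser-TGA-4-1 then differed by 1.34 each with PNK and by -0.82 and -0.92 without. The third copy, tRNA-Ser-TGA-1-15, differed by -0.50 without PNK. Its value with PNK, and the single rows for A7 and E4 less G8, are not given here. With the chromosome 10 row in, Ser-TGA was called with PNK only for A7 less G8, by 1.00 (adjusted p = 0.0484, and 0.34 with adjusted p = 0.598 for G8 library 3 alone; with any 1 of 10 libraries left out the call was lost, at adjusted p up to 0.191). Without PNK it gave no call in the 6 pairs, with 688 and 884 CPM in G8 libraries 1 and 2 and 3818 in library 3.

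SeC-TCA, the tRNA that inserts selenocysteine, differed between groups without PNK. Its levels were 11.7, 10.7 and 12.4 CPM for A4, 74.0, 53.5 and 34.5 for A7, 17.7, 17.5 and 18.6 for E4 and 59.9, 47.4 and 26.2 for G8, against 107, 52.2 and 33.7 for mock. The A4 libraries were the lowest of all, the E4 libraries next, and the A7, G8 and mock libraries overlapped with each other. The log2 difference of SeC-TCA was -2.20 for A4 less A7 (adjusted p = 0.0209), -1.93 for A4 less G8 (adjusted p = 0.00642) and -1.32 for E4 less G8 (adjusted p = 0.0300). The differences from G8 library 3 alone, with the spread of the other groups, were -1.17 (adjusted p = 0.0361) and -0.62 (adjusted p = 0.333). The call between A4 and A7 was lost with any 1 of 6 libraries left out (adjusted p up to 0.129, without A4 library 2), and that between E4 and G8 with any 1 of 5 (up to 0.1001, without E4 library 2). By nuclear tRNA totals all 3 were called, at -1.52, -1.84 and -1.42.

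With PNK, SeC-TCA gave no call among the THP-1 groups. It averaged 118 ± 61.6 CPM for A4, 87.7 ± 11.8 for A7, 71.2 ± 2.71 for E4 and 49.2 ± 45.0 for G8, against 92.3 ± 15.6 for mock. Within A4 it was 70.7, 188 and 96.8 CPM, and within G8 29.8, 17.1 and 101, so libraries of one group differed by more than the group means. RPPH1, the RNA of RNase P, is the one gene of 21 looked for among those that act on these tRNAs that has a row. Its group means were 453 to 750 CPM in the THP-1 groups and 313 in mock with PNK, and 29.97 to 63.9 in the THP-1 groups and 28.9 in mock without.

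**Figure D5:**
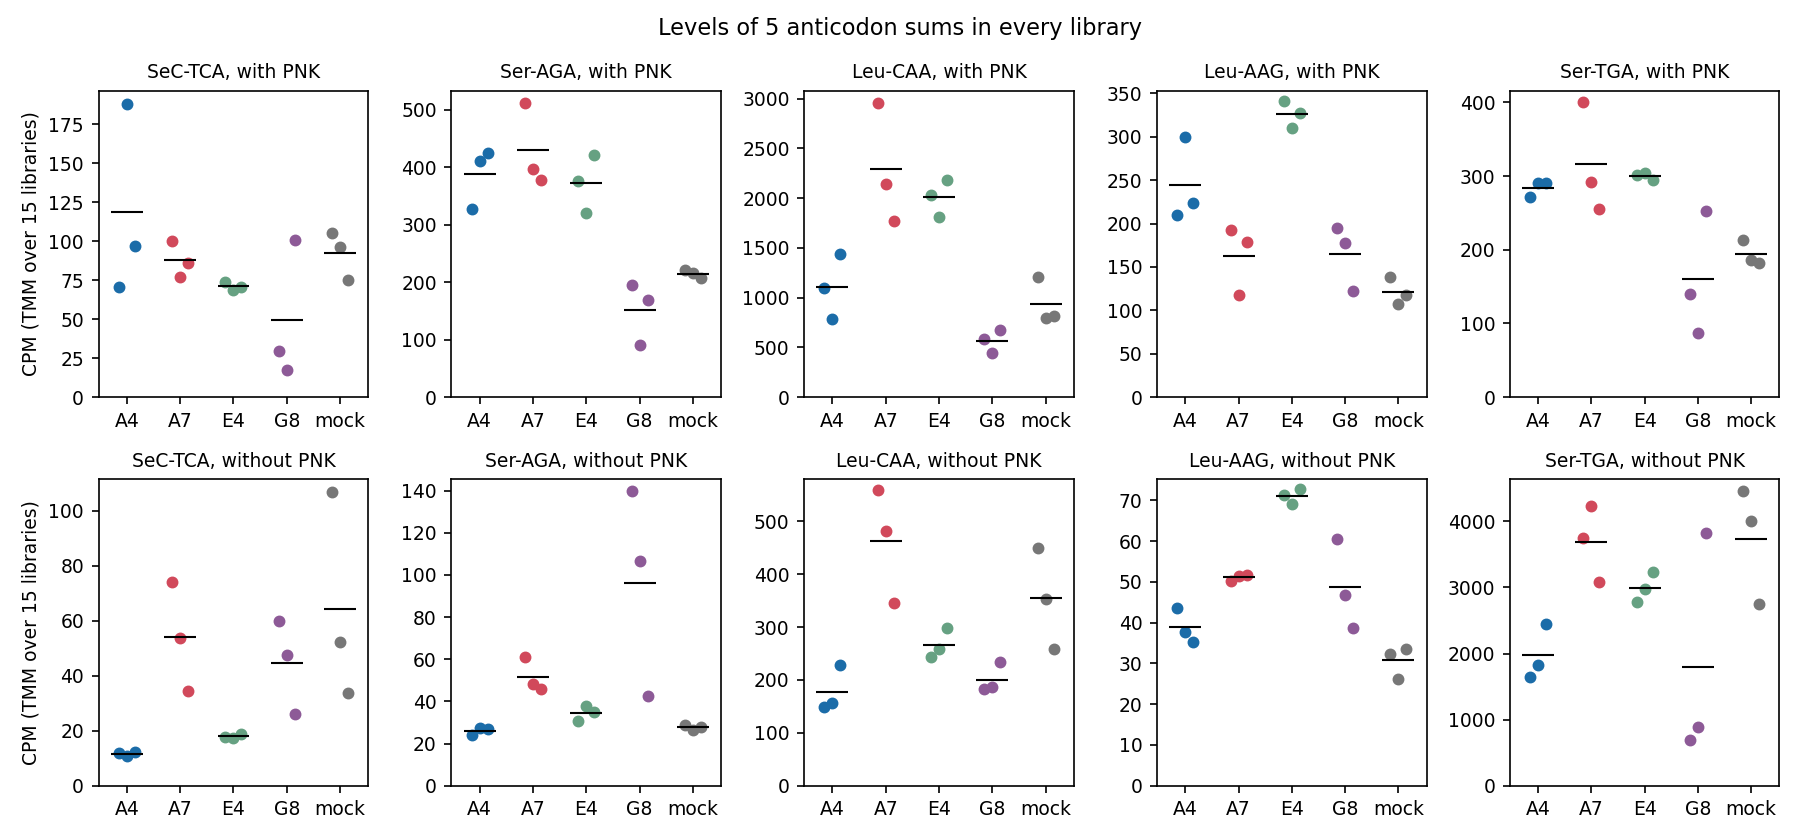
Levels of 5 anticodon sums in each library (points) with the group mean (line), in CPM on the TMM scale of 15 libraries per arm, with PNK above and without below. With PNK, Leu-CAA lies at 1774 to 2957 CPM in A7 and E4 and at 443 to 672 in G8; without PNK, SeC-TCA lies at 10.7 to 18.6 in A4 and E4.

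Leu-AAG, which reads CUU codons, was highest in E4 in both arms. With PNK it was at 209, 300 and 224 CPM for A4, 193, 118 and 179 for A7, 341, 310 and 328 for E4 and 195, 178 and 122 for G8, against 139, 107 and 118 for mock. Every E4 library was above all others. It was higher in E4 than in G8 by 1.00 on the log2 scale (adjusted p = 0.0141), and by 1.43 than in G8 library 3 alone, whose spread was taken from the other groups (adjusted p = 0.0329). The call was lost without E4 library 1 (adjusted p = 0.0524) and by nuclear tRNA totals (adjusted p = 0.201). Without PNK it stood at 71.2 ± 1.902 CPM in E4, 51.1 ± 0.855 in A7, 48.7 ± 11.045 in G8 and 38.8 ± 4.35 in A4, against 30.7 ± 3.91 in mock, with no call among the THP-1 groups.

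The remaining calls among the THP-1 groups involved Leu-TAG, Leu-CAG, which reads CUG codons, Leu-TAA, which reads UUA codons, and Ser-GCT, which reads AGC and AGU codons. Those with PNK were Leu-TAG for E4 less G8, by 1.24 (adjusted p = 0.0361), and Ser-GCT for A4 and E4 less G8, by 0.72 and 0.78 (adjusted p = 0.0368 and 0.0325). Without PNK, Leu-TAA differed by -1.27 for A4 less A7 (adjusted p = 0.0422), and Leu-CAG, Leu-TAA and Ser-GCT by 0.84, 1.17 and 0.79 for A7 less G8 (adjusted p = 0.0382, 0.0194 and 0.0420). Leaving out G8 libraries 1 and 2 ended those of Leu-CAG (adjusted p = 0.225) and Leu-TAA in A7 less G8 (adjusted p = 0.186). Against G8 library 3 alone, with the spread of the other groups, Leu-TAG in E4 less G8 was at 2.64 (adjusted p = 0.00110) and Ser-GCT at 1.14 and 1.21 in A4 and E4 less G8 with PNK (adjusted p = 0.0190 and 0.0279) and at 1.09 in A7 less G8 without (adjusted p = 0.0246). Each of these 7 calls was lost with at least 1 single library left out and, except that of Leu-TAG, by nuclear tRNA totals. Without PNK, 56.5% of Ser-GCT counts came from the copy beside MIR4521. It had 695, 938 and 946 counts in A7 and 68, 53 and 258 in G8. The Ser-GCT sums were 1234, 1381 and 1479 in A7 and 563, 350 and 479 in G8. A sum without that copy was not tested, so how far the Ser-GCT difference without PNK rests on it is not known. Ser-CGA, which reads UCG codons, was at 1.86 to 5.47 CPM with PNK and 0.901 to 2.71 without in the THP-1 groups and gave no call among them.

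Against mock, the THP-1 groups gave 15 of 40 calls with PNK, all higher in THP-1 (6.91% of all tests of features were called, 4.45% higher and 2.46% lower). Without PNK there were 5 of 40 (6.5% of all), 3 higher (2.38% of all) and 2 lower (4.12% of all). With PNK, E4 had 6 of 10 anticodons called higher (4.81% of all features were), A4 had 5 (7.24% of all), A7 had 4 (2.99% of all) and G8 had 0 (2.77% of all). The 38 other nuclear tRNA anticodons had 14 higher calls in E4, 16 in A4, 7 in A7 and 3 in G8, where 2 more were lower. The median log2 difference of the 10 anticodons with PNK was 0.71 for A4, 0.69 for A7, 0.91 for E4 and 0.11 for G8. The median of the 38 other nuclear tRNA anticodons was 0.78, 0.61, 0.76 and -0.14 in the same order, and that of all features lay between -0.01 and 0.04. By the labels, cell line and treatment both differ between these groups and mock and cannot be told apart. The marker miRNAs of the libraries without PNK go against the cell line label of mock.

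Leu-TAG, which reads CUA codons, had the largest called difference from mock with PNK. With PNK it was at 382, 355 and 354 CPM for A4, 450, 272 and 286 for A7, 590, 561 and 458 for E4 and 322, 278 and 86.5 for G8, against 181.85, 88.6 and 125 for mock. Every A4, A7 and E4 library was above every mock library, and G8 library 3 was below all 3. The log2 difference from mock was 1.46 in A4 (adjusted p = 0.0141), 1.35 in A7 (adjusted p = 0.0402) and 2.02 in E4 (adjusted p = 0.00259). That of E4 was also called by library totals and nuclear tRNA totals, at 1.72 and 1.58, and without any 1 library. That of A4 was lost without mock library 2 or 3 (adjusted p up to 0.0843), and that of A7 with any 1 of 7 libraries left out (up to 0.195, without A7 library 1).

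Leu-AAG was higher in A4 than in mock by 1.01 (adjusted p = 0.00798) and in E4 by 1.43 (adjusted p = 0.00124) with PNK. Leu-CAA was higher in A7 by 1.29 (adjusted p = 0.0113) and in E4 by 1.10 (adjusted p = 0.0201). Ser-GCT was higher in A4 by 0.92, in A7 by 0.86 and in E4 by 0.98 (adjusted p = 0.00820, 0.0244 and 0.00817), and Ser-AGA in A4 by 0.85 and in A7 by 1.00 (adjusted p = 0.0326 and 0.0253). Leu-CAG was higher in A4 by 0.71 and in E4 by 0.84 (adjusted p = 0.0296 and 0.0157), and Ser-CGA in E4 by 1.04 (adjusted p = 0.0322). By library totals 5 of the 40 tests were called (11.6% of all tests of features were) and by nuclear tRNA totals 2 (3.1% of all), and without mock library 2 or 3 the count was 4 or 6. Without any 1 library, the calls of Leu-AAG in E4 and of Ser-GCT in A4 and E4 were kept, and the other 9 named here were lost at least once.

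Without PNK, SeC-TCA was lower in A4 than in mock by -2.47 on the log2 scale (adjusted p = 0.0382) and Leu-AAG higher in E4 by 1.21 (adjusted p = 0.0341). In G8, Ser-AGA and Ser-CGA were higher, by 1.80 and 1.19 (adjusted p = 0.00415 and 0.0153), and Leu-CAG lower, by -0.90 (adjusted p = 0.0338). With G8 library 3 alone, its spread taken from the other groups, Ser-AGA was at 0.81 (adjusted p = 0.0541), Ser-CGA at 1.497 (adjusted p = 0.0300) and Leu-CAG at -0.39 (adjusted p = 0.486). The call of SeC-TCA was lost with any 1 of 10 libraries left out (adjusted p up to 0.318, without A4 library 1) and that of Leu-AAG with any 1 of 13 (up to 0.146, without E4 library 1). A7 gave 0 calls by edgeR without PNK (0% of all features were called) and 1 by DESeq2. In edgeR 3 anticodons had an unadjusted p under 0.05, and 159 of all 1504 features did. G8 gave 0 calls with PNK by edgeR and 0 by DESeq2. In edgeR 2 of its anticodons had an unadjusted p under 0.05, and 1801 of all 8904 features did.

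Whether the difference between the arms itself differed among A4, A7, E4 and G8 was tested over their 24 libraries. No anticodon of 10 was called by edgeR (0.251% of all features were). An unadjusted p under 0.05 was found for 4 of the 10, and for 1006 of all 10374 features. DESeq2 called 2, and the share of all features that it called is not given here. The lowest adjusted p values were those of SeC-TCA, at 0.0951, and Ser-AGA, at 0.0999. They were 0.00157 and 0.401 with G8 library 3 alone in each arm, its spread taken from the other groups. For single rows in place of sums, a level chosen after the data were seen, 10 of 55 rows were called (0.413% of all features were), 9 of them Ser rows. With G8 library 3 alone in each arm 10 of 57 rows were called (1.06% of all features were); 3 of these were among the first 10, and 2 of the later 10 were Ser rows, 7 Leu rows and 1 the SeC row on chromosome 19.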

How the data were processed

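Small RNA counts per annotated row came as whole numbers in 1 deposited count table; per the submitters' processing notes the authors used Trim Galore, FastQC, Bowtie2 2.3.5.1, SAMtools 1.9, deepTools 3.2.1 and bedtools 2.28.0 with GRCh38. A read counts in each row it overlaps and strand is ignored, as tested on the rows. Of 175946 rows, 85648 that do not repeat a locus were kept, and tRNA rows were summed by anticodon, giving 85202 features. Each comparison was fitted over all features with edgeR 4.0.16 (R 4.3.3; TMM, filterByExpr, quasi-likelihood F test, Benjamini-Hochberg at 0.05, prior count 2), with DESeq2 1.42.0 as an alternative. Fits held the 6 libraries of a group (PNK), the 12 THP-1 or all 15 libraries of an arm, or 24 THP-1 libraries. The fits recovered 98.9% of simulated 4-fold and 36.1% of 2-fold changes for the PNK comparison in A4 (6103 features). Recovery was 95.9% and 71.4% for A4 against A7 without PNK (1444 features) and 86.8% and 27.4% with PNK (8250 features). For A4 against mock with PNK it was 93.9% and 19.6% (8741 features). The simulation gave every fit 1 dispersion of 0.05. It also gave all libraries of a fit the same make-up apart from the features that were changed. For the PNK comparison it thus did not test the scaling between the arms, where TMM factors in A4 ran from 0.223 to 4.16. In the data the coefficient of variation between libraries was 27.8% for PNK in A4, 42.7% for THP-1 without PNK and 22.4% with. These recoveries thus leave out the wider spread of the libraries without PNK and are not compared between arms. The members and lists were chosen with earlier results of these data known, and every anticodon is reported; single rows were picked after their values were seen. Where replicate numbers are shared, correlations of same-numbered deviations were over 0.1 in all 3 pairs for A4 with E4 (0.513 to 0.809), A4 with G8 (0.140 to 0.548) and E4 with G8 (0.111 to 0.333) without PNK only; a replicate block changed no call in those pairs.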

Additional observations from a re-analysis of the deposited data

Results flagged for a closer look

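Single tRNA rows, chosen as a level of analysis after the data were seen, gave 10 of 55 rows whose difference between the arms differed among A4, A7, E4 and G8 by the test of the interaction in edgeR (0.413% of all features were called). Of the 10 rows, 9 were Ser rows and 6 of these Ser-AGA, and copies of one tRNA share reads, so they are not independent. Whether Ser-AGA and Ser-TGA rows share reads was not tested. The adjusted p was 0.010269 for tRNA-Ser-AGA-2-6 at chr6:27495814, tRNA-Leu-CAA-3-1, tRNA-Ser-TGA-4-1 and tRNA-Ser-AGA-4-1, 0.010896 for tRNA-Ser-AGA-3-1, and 0.011219 for tRNA-Ser-AGA-1-3 and tRNA-Ser-AGA-2-6 at chr6:26327589. It was 0.032995 for tRNA-Ser-AGA-2-6 at chr17:8226610, 0.046055 for tRNA-Ser-TGA-3-1 and 0.049064 for tRNA-Ser-GCT-1-2. With G8 library 3 alone in each arm, assumed to vary like the other groups, 3 of these 10 were called, and their adjusted p lay between 0.0188 and 1.0. In that fit 7 further rows were called (1.06% of all features were called), so that of its 10 rows 2 were Ser. They were tRNA-SeC-TCA-1-1 (adjusted p = 0.00124), tRNA-Leu-AAG-4-1 (0.00430), tRNA-Leu-CAG-2-25 (0.0156), tRNA-Leu-TAA-1-1 (0.0193), tRNA-Leu-TAG-2-1 (0.0202), tRNA-Leu-CAG-1-1 at chr6:26521208 (0.0393) and tRNA-Leu-CAA-1-1 (0.0485).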

How the results depend on the processing

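The counts of calls below follow one order: against mock without and with PNK (5 and 15), THP-1 pairs without and with PNK (11 and 13), across the THP-1 groups without and with PNK (4 and 3), higher and lower with PNK (0 and 47), and the interaction (0). In the main fits 6.5%, 6.91%, 13.6%, 9.59%, 31.3%, 22%, 59.5%, 15.5% and 0.251% of all features tested were called, in that order. These shares move with the setting, with 88.8% higher and 8.92% lower with PNK by library totals. Beyond the shares stated in the results they are not given here. The counts below therefore show only how calls depend on processing, and are not read as results about these tRNAs. DESeq2 gave 11, 15, 18, 15, 7, 4, 0, 48 and 2. Library totals gave 6, 5, 14, 11, 7, 5, 37, 6 and 0; miRNA factors 5, 4, 17, 4, 5, 3, 49, 0 and 2; nuclear tRNA totals 3, 2, 6, 3, 2, 1, 5, 22 and 1; no filter on low counts 1, 13, 1, 19, 1, 8, 1, 31 and 2. The replicate block gave 3, 15, 7, 13, 4, 4, 0, 49 and 1, with the pairing described in the methods holding only for 3 pairs of groups. Without G8 libraries 1 and 2, which leaves G8 library 3 alone in each arm and takes the spread from the other groups, the first 6 were 10, 17, 14, 13, 8 and 5, and the interaction 3. DESeq2 size factors, all tRNA rows and leaving out the chromosome 10 Ser-TGA row (chosen after seeing the data, as was the interaction) moved no count past 1.5 times. Leaving out 1 library gave ranges of 1 to 19, 4 to 18, 4 to 27, 7 to 17, 1 to 9, 3 to 6, 0 to 0, 46 to 48 and 0 to 4; the highest of 19, 27, 9 and 4 came without G8 library 3 without PNK.

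Scaling by miRNA factors, which moved the median of all features between the arms by 7.92 to 9.16, turned round Ser-TGA with PNK (1.45, 0.65, 1.21, 1.25 and 1.13 in A4, A7, E4, G8 and mock) and Ser-AGA (8.13, 7.27, 7.96, 4.39 and 8.34). It turned round A7 less G8 without PNK for Leu-CAA (-0.75), Leu-CAG (-1.08), Leu-TAA (-0.59) and Ser-GCT (-1.38), and with PNK for Ser-TGA (-0.27). It did so with PNK for A4 less G8 in Leu-CAA (-0.20) and Ser-GCT (-0.54), and for E4 less G8 in Leu-AAG (-0.48), Leu-TAG (-0.34), Ser-AGA (-0.0385) and Ser-GCT (-0.69). Against mock it did so for Leu-CAG in G8 without PNK (0.84) and, with PNK, in A4 (-0.12) and E4 (-0.17), for Ser-AGA in A7 (-0.046) and for Ser-GCT in A7 (-0.17) and E4 (-0.0347). Ser-AGA with PNK was 3.63, 2.84, 3.32, 1.17 and 3.16 by library totals in the order above, 1.32, 0.85, 0.92 and 1.36 by nuclear tRNA totals in A4, A7, E4 and mock, and 0.83, 0.30, 0.82 and 0.21 with no filter. The cause was not tested. Of 1400 values of 63 named results under alternatives, 1035 kept direction and call, 310 lost the call, 15 gained one and 40 turned round.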
